A study of Mus musculus with 8 samples.

Results

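Complex I subunits and assembly factors are described here through every gene whose annotated symbol starts with Nduf, across cultured mouse inguinal adipocytes with and without a PRDM16 knockdown and with and without rosiglitazone. The symbol rule found 82 of the 22690 probe sets of the array. Of these, 74 were annotated to 1 gene and gave 39 genes, out of 12393 genes measured, and 8 were annotated to several genes and are described separately. All 39 genes were bright enough to pass the filter that kept 9294 genes for testing, and the lowest intensity of any of them on any array was 164.5. The rule used symbols only and no measured value.

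The cells were stromal-vascular cells of the inguinal white fat pad of male C57BL/6J mice, differentiated into adipocytes in culture. They expressed either sh-scr, a control short hairpin RNA, or sh-PRDM16, a hairpin named for PRDM16, a transcriptional co-regulator known for promoting brown fat genes. Each kind of cell was either left without an agent or given 1 µM rosiglitazone, a drug that activates the nuclear receptor PPARγ. This made 4 groups of 2 arrays, which the design text calls biological replicates: untreated sh-scr, rosiglitazone-treated sh-scr, untreated sh-PRDM16 and rosiglitazone-treated sh-PRDM16. Every group was thus a hairpin-expressing culture, and no cells without a hairpin were included. How many hairpin sequences were used, and whether the replicates came from separate animals, is not given in the labels. Prdm16 RNA itself was not analysed here, so the knockdown is known from the labels alone.

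Complex I, or NADH:ubiquinone oxidoreductase, is the entry point of the mitochondrial respiratory chain. It takes electrons from NADH in its N module, passes them along iron-sulfur clusters to ubiquinone in the Q module, and couples this to proton pumping by a membrane arm with a proximal and a distal part. Core subunits carry the cofactors and the pumping machinery, the membrane core being encoded in mitochondrial DNA, while supernumerary subunits surround them and assembly factors build the complex without staying in it. Brown and beige adipocytes are rich in mitochondria, and their heat production draws on the NADH that complex I oxidises. PGC-1 co-activators, ERRα, NRF1 and GABP are known activators of nuclear respiratory chain genes.

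The members covered most of the nuclear-encoded complex. There were 7 of the 8 listed N module genes, 7 of 8 Q module genes, 8 of 9 genes of the proximal membrane arm and 10 of 12 names listed for the distal membrane arm. The acyl carrier subunit Ndufab1, 5 of 8 assembly factors with an Nduf symbol, and Ndufa4 completed the 39 genes. Ndufa4 keeps its complex I name although its protein was later assigned to cytochrome c oxidase, which is complex IV. Of the other listed names, Ndufs6, Ndufa11 and Ndufb4 had only probe sets shared with other genes, which are described below without a test. The remaining names, the mitochondrially encoded subunits among them, were not analysed here.

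The deposited values are linear intensities, and changes are differences of log2(intensity + 16) fitted in limma for all 9294 genes at once, with p-values adjusted over all of them and 0.05 as the threshold. The array medians of the deposited table differed by up to 0.43 on the log2 scale. In the rosiglitazone comparison of sh-scr cells the median change of all genes was -0.31. The main counts of members below are therefore given on the deposited scale and again after each array was centred on its own median. Where a count names no scale, it is on the deposited one. Among the 8 adipocyte markers measured, Adipoq and Fabp4 were bright in all cultures, Adipoq ranging from 9965 to 15191. Others were much dimmer in some cultures. Cidec read 234.5 and 221.7 in untreated sh-PRDM16 cells, and Lep 4.1 and 2.8 in treated ones. The ratio of 3′ to 5′ probe sets of Actb, a measure of RNA integrity, was 0.38 and 0.49 on the log2 scale in treated sh-scr cells, its highest values, and 0.25 to 0.34 in the remaining groups. For Gapdh it was -0.35 to -0.33 on treated arrays and -0.44 to -0.40 on untreated ones. The part of these RNA measures in the complex I values was not tested.

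The complex I genes as a group followed both the drug and the hairpin. The median log2 intensity of the 39 genes exceeded the median of all genes on the same array by 3.57 and 3.49 in untreated sh-scr cells. It did so by 4.04 and 4.24 in treated sh-scr cells, by 3.11 and 3.07 in untreated sh-PRDM16 cells, and by 3.79 and 3.75 in treated sh-PRDM16 cells. The 4 groups did not overlap on this measure, and the SD between replicate arrays was 0.0788. Untreated knockdown cells lay lowest, treated control cells highest, and treated knockdown cells above untreated control cells.

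**Figure D1:**
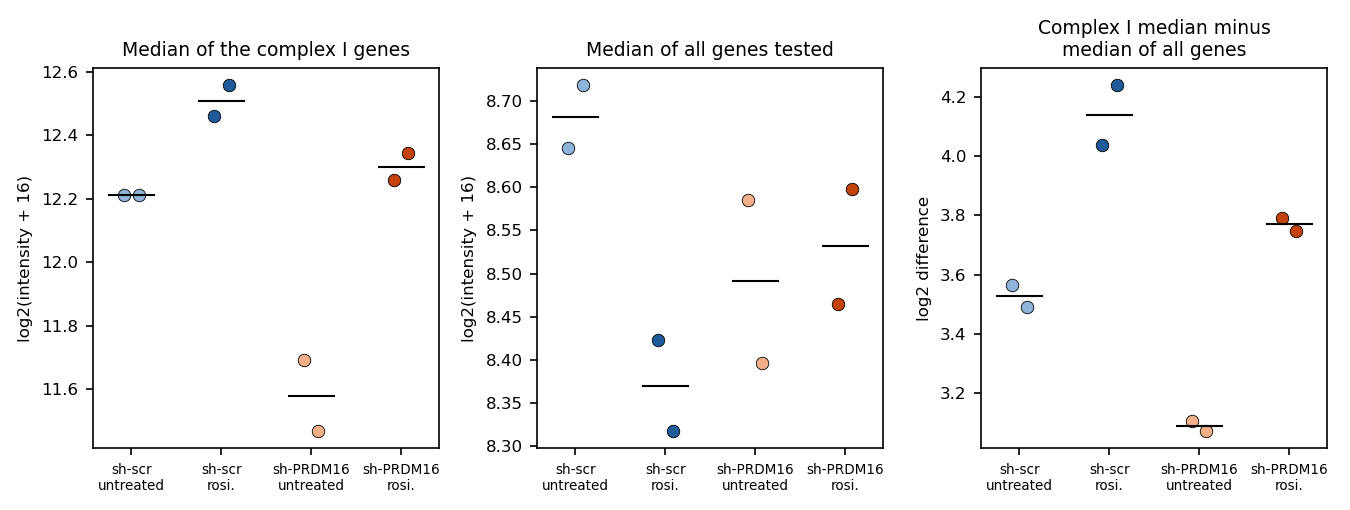
Median log2(intensity + 16) of the 39 complex I genes (left), of all 9294 genes tested (middle) and their difference (right) on each array, with the mean of each group as a line. The difference runs from 3.07 in untreated sh-PRDM16 cells to 4.24 in treated sh-scr cells, and the 4 groups do not overlap, whereas the median of all genes is lowest in treated sh-scr cells.

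Gene by gene, the same order was common. Ranked by group means, 21 of 39 members ran from untreated sh-PRDM16 through untreated sh-scr and treated sh-PRDM16 to treated sh-scr, against 6.00% of all genes tested, and 34 of 39 did so after median-centring, against 11.5% of all genes. On the deposited scale a further 12 members had treated sh-PRDM16 below untreated sh-scr, 5 had treated sh-PRDM16 above treated sh-scr, and 1, Ndufaf7, had untreated sh-scr on top. Both untreated sh-PRDM16 arrays lay below all 6 other arrays for 36 members on either scale, where 15.7% of all genes did so on the deposited scale and 15.4% after centring. Ndufaf4, Ndufaf7 and Ndufb1 were the exceptions on the deposited scale. Both treated sh-PRDM16 arrays exceeded both untreated sh-scr arrays for 21 members, where 19.0% of all genes did, and for 31 after centring, where 37.3% did. Both treated sh-scr arrays lay above all other arrays for 25 members, where 6.58% of all genes did, and for 33 after centring, where 15.9% did. These orders are descriptions, since the 4 comparisons share groups.

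**Figure D2:**
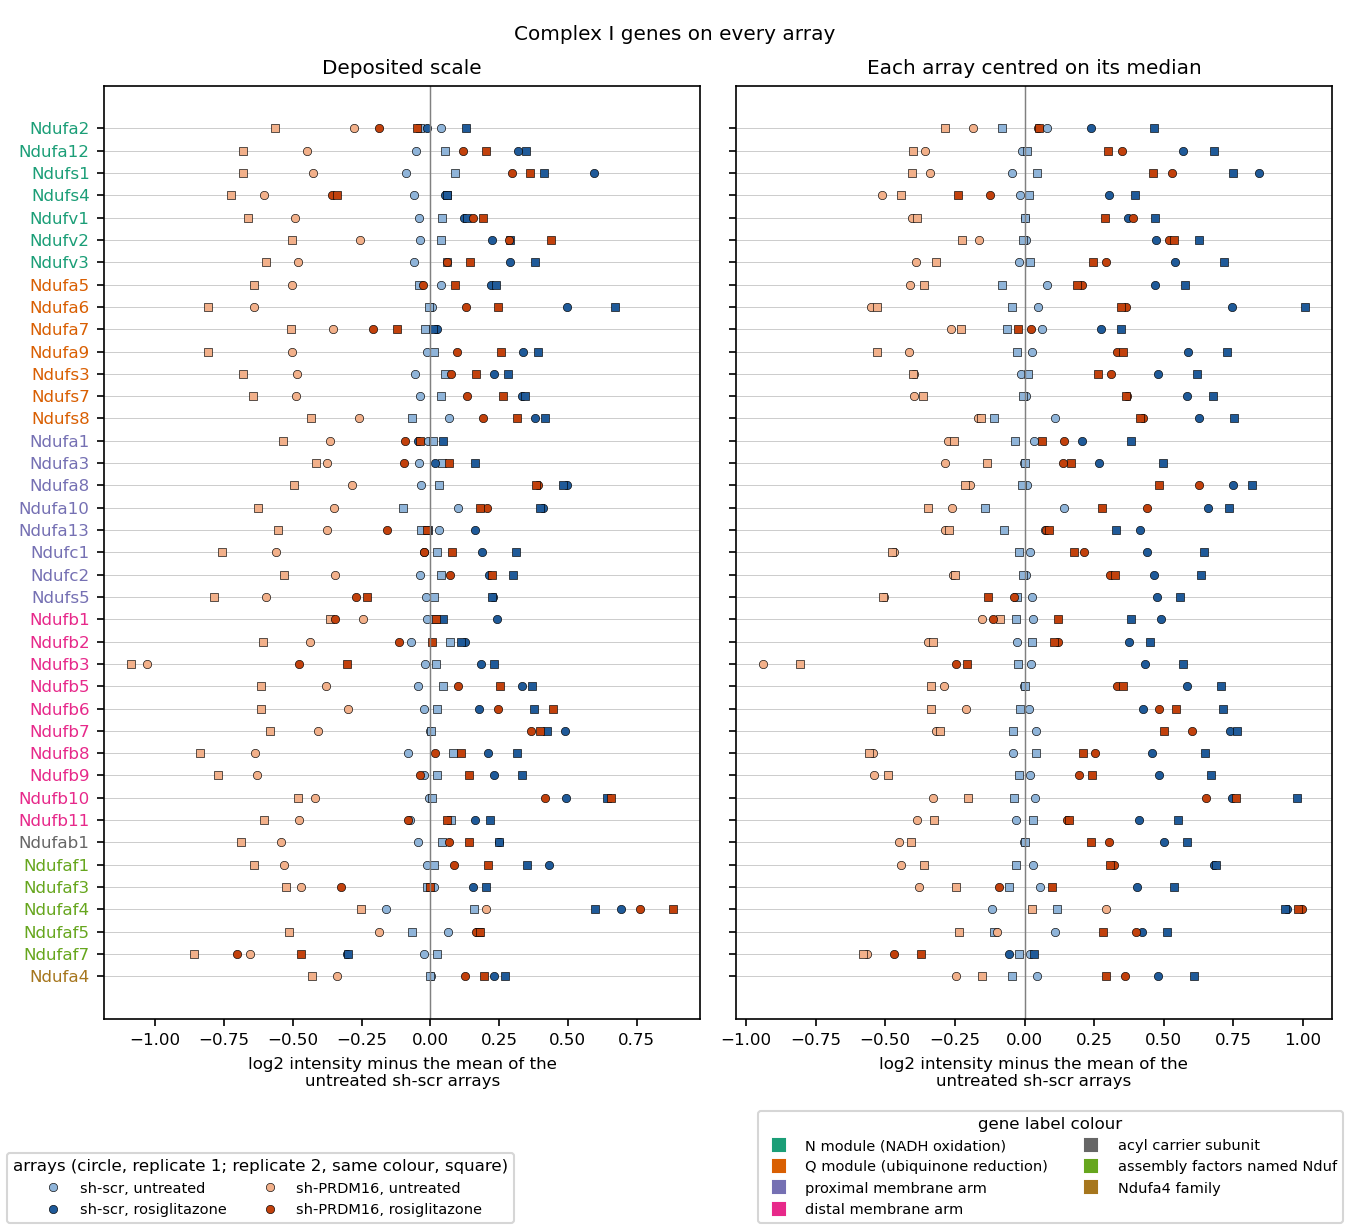
log2(intensity + 16) of each complex I gene on every array, minus the mean of the untreated sh-scr arrays, as deposited (left) and with each array centred on its median (right); colours of the points give the group, circles and squares the replicates, and colours of the gene names the module. The pale orange points of untreated sh-PRDM16 cells lie leftmost for 36 of the 39 genes, and Ndufb3 has the lowest of them.

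Promoter windows of 4 members that stand at the ends of the changes described below are printed here, from 250 bases before to 50 after the annotated start, as RefSeq gives them for GRCm38.p6 and in the direction of the gene. Ndufb3 (chr1:58586147-58586446, plus strand) had the largest decrease with sh-PRDM16. Ndufs5 (chr4:123718137-123718436, minus strand) fell past the threshold, as Ndufb3 did, in knockdown cells with and without the drug, on the deposited and on the median-centred scale. Ndufb8 (chr19:44555393-44555692, minus strand) was among the largest decreases without the drug, and Ndufaf4 (chr4:24897833-24898132, plus strand) had the smallest. Capitals mark the letters of the motifs named in the next paragraph.
Ndufb3: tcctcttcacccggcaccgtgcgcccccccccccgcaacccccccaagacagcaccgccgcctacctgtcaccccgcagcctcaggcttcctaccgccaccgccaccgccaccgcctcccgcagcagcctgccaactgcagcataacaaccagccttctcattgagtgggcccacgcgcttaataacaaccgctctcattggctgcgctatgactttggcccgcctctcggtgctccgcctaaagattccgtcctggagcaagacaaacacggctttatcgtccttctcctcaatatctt
Ndufs5: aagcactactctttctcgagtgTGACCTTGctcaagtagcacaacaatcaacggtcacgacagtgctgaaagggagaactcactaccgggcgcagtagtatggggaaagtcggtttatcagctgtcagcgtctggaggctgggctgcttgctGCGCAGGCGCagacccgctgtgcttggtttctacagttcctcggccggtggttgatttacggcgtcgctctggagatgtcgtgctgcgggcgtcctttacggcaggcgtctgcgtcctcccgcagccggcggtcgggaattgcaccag
Ndufb8: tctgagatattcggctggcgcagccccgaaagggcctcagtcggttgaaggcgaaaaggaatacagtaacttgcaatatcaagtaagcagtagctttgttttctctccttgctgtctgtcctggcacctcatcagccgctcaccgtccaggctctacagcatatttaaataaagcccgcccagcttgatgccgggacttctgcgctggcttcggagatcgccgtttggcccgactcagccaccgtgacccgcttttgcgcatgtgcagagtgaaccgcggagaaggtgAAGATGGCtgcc
Ndufaf4: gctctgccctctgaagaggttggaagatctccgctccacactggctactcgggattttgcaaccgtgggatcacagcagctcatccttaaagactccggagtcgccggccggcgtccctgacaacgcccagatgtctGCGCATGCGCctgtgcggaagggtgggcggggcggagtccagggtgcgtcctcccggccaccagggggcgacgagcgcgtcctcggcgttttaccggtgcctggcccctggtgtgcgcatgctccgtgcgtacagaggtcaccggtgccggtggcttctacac

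Windows were found for 36 of the 39 members (2 of them with more than 1 window), and Ndufa2, Ndufb9 and Ndufs1 are named without one. Both strands were searched for the NRF1 motif, GCGC and TGCGC with 1 base of any kind between them. It occurred in 6 members (16.7%: Ndufa5, Ndufa6, Ndufa8, Ndufaf4, Ndufaf5 and Ndufs5), against 11.7% of the 7511 tested genes with a window and 5.19% of all 27025 genes in the table. The YY1 motif AAGATGGC occurred in 6 (16.7%: Ndufa3, Ndufa9, Ndufb8, Ndufc1, Ndufs4 and Ndufs7), against 5.25% and 3.19%. The GABPA motif CCGGAAG occurred in 5 (13.9%: Ndufaf1, Ndufb6, Ndufb7, Ndufs3 and Ndufs8), against 19.9% and 9.93%. The ERRα motif CAAGGTCA occurred in Ndufs5 alone (2.78%), against 1.4% and 1.76%, and the PPAR-RXR motif, AGGTCA repeated after 1 base of any kind, in no member, against 0.0266% and 0.0481%. None of the 5 motifs was in the windows of 19 members (52.8%), Ndufb3 among them, against 66.9% of tested genes. In the printed windows the NRF1 letters of Ndufaf4 begin at -113, those of Ndufs5 at -98 on the reverse strand with the ERRα letters at -228, and the YY1 letters of Ndufb8 at 39, counted from the annotated start as 1. Such matches describe letters in a window and do not show binding.

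The first comparison asked how the complex I genes differed between sh-PRDM16 and sh-scr cells without rosiglitazone. All 39 were lower in sh-PRDM16 cells by their fitted change (38 after centring, which put Ndufaf4 at 0.16), and 28 fell past the threshold (22 on the median-centred scale, the 22 among those 28), with none higher. Of all 9294 genes tested, 6750 had a negative fitted change (4357 after centring). Past the threshold, 15.5% fell (12.6% after centring) and 1.99% rose (8.80%). The median change of the members was -0.52 against -0.16 for all genes, and -0.34 after centring. Ndufb3, a small membrane-anchored subunit of the distal arm, fell by 1.06 on the log2 scale (SE 0.13, limma adjusted p = 0.000704), to a 0.48-fold level. Ndufaf7, a methyltransferase that acts in complex I assembly, fell by 0.76, Ndufb8 of the distal arm by 0.74, and Ndufa6, a Q module subunit of the LYR family, by 0.72. Ndufaf4 (-0.03), Ndufb1 (-0.30) and Ndufs8 (-0.35) had the smallest differences and did not pass.

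Every module took part in the decrease without the drug. In the N module 5 of 7 fell (5 after centring), in the Q module 6 of 7 (5), in the proximal arm 5 of 8 (2), in the distal arm 8 of 10 (7), and of the assembly factors 3 of 5 (2). Their medians were -0.56, -0.57, -0.46, -0.51 and -0.50. Ndufab1, the mitochondrial acyl carrier protein that sits in complex I at more than 1 place, fell by 0.61, while Ndufa4 was at -0.38 and did not pass. Arrays of the groups did not overlap for 38 members, all lower in sh-PRDM16 cells, where 47.0% of all genes were lower and 10.8% higher. The count rested on single arrays: it was 9 without replicate 1 of untreated sh-scr, 3 without its replicate 2, 8 without replicate 2 of untreated sh-PRDM16, and between 21 and 32 without any other array. After centring it was between 6 and 8 without any 1 of the 4 arrays compared. The median of the members below that of all genes stayed between -0.37 and -0.35 in these fits.

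The hairpin comparison without drug also differed in cell markers. Of all genes tested, 15.5% fell and 1.99% rose in it. Of 8 adipocyte markers tested, 7 fell in sh-PRDM16 cells (median -1.27), and their summed intensity was 48849 to 50066 in untreated sh-scr and 30676 to 35133 in untreated sh-PRDM16 cells. Of 8 macrophage and leukocyte markers 6 fell (median -2.05), with sums of 5147 to 5642 and 1065 to 1136; among them Lyz2 went from 3148 and 3308 to 234 and 236, and Itgam was under 50 on every array. Sums of preadipocyte and fibroblast markers were 29677 to 29802 and 25467 to 28922, with 2 of 9 lower (after centring 1 lower, and Thy1 higher). None of 6 endothelial, 4 mesothelial and mammary epithelial or 8 housekeeping genes passed on the deposited scale. After centring, Krt5 and the housekeeping gene Tbp were higher. Of 8 smooth muscle and pericyte markers Cnn1 rose and Des fell (Des not after centring). Of 3 skeletal muscle markers Acta1 rose and Myh1 fell, while Myod1, Myog and Ckm were under 50 on every array. The part of these markers in the complex I decrease was not tested. In bulk samples such as these, fewer cells of a type and less RNA per cell cannot be told apart.

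The second comparison asked what rosiglitazone did to the complex I genes in sh-PRDM16 cells. All 39 were higher with the drug by their fitted change, and 30 rose past the threshold (34 after median-centring, the 30 included), with none lower, where 10.1% of all genes rose (14.5% after centring) and 3.31% fell (9.87%). Of all 9294 genes tested, 4681 had a positive fitted change (4424 after centring). The median change of the members was 0.67 against 0.00 for all genes. Ndufb10, an intermembrane-space-facing subunit of the distal arm, rose by 0.99 (SE 0.14, limma adjusted p = 0.00144), a 1.98-fold change. Ndufa6 rose by 0.91, the core subunit Ndufs1 by 0.89 and Ndufb7 of the distal arm by 0.88. Ndufb1 (0.14), Ndufaf7 (0.17) and Ndufa7 (0.27) had the smallest differences and passed on neither scale.

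By module, 5 of 7 N module genes rose in sh-PRDM16 cells (6 after centring), 6 of 7 Q module genes (6), 5 of 8 of the proximal arm (8), 9 of 10 of the distal arm (9) and 3 of 5 assembly factors (3). All 6 core subunits measured were among them, with changes of 0.60 to 0.89. The proximal arm had the lowest median of the 4 structural modules, 0.51, against 0.72 in the N module, 0.70 in the Q module and 0.71 in the distal arm; the differences between modules were not tested. Treated arrays lay above untreated arrays without overlap for 37 members, where 27.0% of all genes did and 23.6% lay below. The count was 18 without replicate 2 of untreated sh-PRDM16, 11 without replicate 2 of treated sh-PRDM16, and 24 to 30 without any other array. After centring it was 27 to 34 whichever array was left out.

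The third comparison was the same drug in sh-scr cells. Fitted changes were positive for 38 members, with Ndufaf7 the exception, and 9 rose past the threshold while none fell. Of all 9294 genes tested, 1876 had a positive fitted change (4494 after centring). Past the threshold, 5.20% rose and 32.2% fell. After median-centring 37 of 39 rose (14.2% of all genes, with 11.9% falling), the 9 included; Ndufa2 and Ndufaf7 were the other two. The median change was 0.26 on the deposited scale and 0.55 after centring, so the number of risers in these cells turned on the scale while the direction of 38 members did not. Ndufaf4, an assembly factor of the Q module, rose by 0.65 (SE 0.18, limma adjusted p = 0.0223), Ndufa6 by 0.58, Ndufb10 by 0.57 and Ndufs1 by 0.50. Ndufa8, a subunit facing the intermembrane space, rose by 0.49, Ndufb7 by 0.46, and Ndufa10, Ndufs8 and Ndufaf1 by 0.40, 0.40 and 0.39.

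At the other end in sh-scr cells were Ndufaf7 at -0.30 (-0.01 after centring), Ndufa1 at 0.00 (0.29) and Ndufa7 at 0.02 (0.31), of which Ndufa1 and Ndufa7 rose after centring. On the deposited scale the 9 risers were 1 of 7 N module genes, 2 of 7 Q module genes, 2 of 8 in the proximal arm, 2 of 10 in the distal arm and 2 of 5 assembly factors. Both treated arrays lay above both untreated ones for 32 members, where 12.4% of all genes did. They lay below for Ndufaf7, as for 64.7% of all genes. The count of 9 fell to 0, 1, 2 and 0 without replicate 1 or 2 of untreated sh-scr and replicate 1 or 2 of treated sh-scr, and was 14 without either array of untreated sh-PRDM16 and 6 without either array of treated sh-PRDM16. After centring it was 28 to 36.

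Cell markers changed with the drug too. Of all genes tested, 32.2% fell and 5.20% rose in sh-scr cells (11.9% and 14.2% after centring). The shares in sh-PRDM16 cells were 3.31% and 10.1% (9.87% and 14.5%). In sh-scr cells 8 of 9 preadipocyte and fibroblast markers fell (6 after centring), and their summed intensity went from 29677 to 29802 without drug to 15778 to 17515 with it. In sh-PRDM16 cells 3 of 9 fell on the deposited scale, namely Lum, Dpt and Fap, and 7 after centring, with sums of 25467 to 28922 and 20222 to 20468. Of 8 smooth muscle and pericyte markers 6 fell in sh-scr (4 after centring) and 4 in sh-PRDM16 cells (4), with sums of 29574 to 30613 and 20605 to 21638 in sh-scr, and 28289 to 30477 and 26336 to 26680 in sh-PRDM16 cells. Of 8 macrophage and leukocyte markers 4 fell in sh-scr (2 after centring) and 1, Lyz2, in sh-PRDM16 cells.

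Of 6 endothelial markers 3 fell with either hairpin (1 after centring in sh-scr and 3 in sh-PRDM16 cells). All 3 skeletal muscle markers tested fell in sh-scr cells (1 after centring) and none passed in sh-PRDM16 cells. Of 4 mesothelial and mammary epithelial markers, Msln fell in sh-scr cells on the deposited scale and Krt18 rose in sh-PRDM16 cells. Of the 8 housekeeping genes tested, Pgk1 and Tfrc rose in sh-scr cells by 0.41 and 0.45, and Gusb fell by 0.70. In sh-PRDM16 cells Tfrc rose by 0.69 and Hprt by 0.65. The adipocyte markers went both ways: Cidec, a lipid droplet protein, and the lipases Lipe and Pnpla2 rose with either hairpin, the hormones Lep and Retn fell with either, and Dgat2 fell in sh-scr cells. The part of these markers in the complex I changes was not tested.

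Across the 39 members the changes with rosiglitazone in the 2 kinds of cells, which come from different arrays, ran together. Pearson's r was 0.83 and Spearman's rho 0.84, against r = 0.74 over all genes tested. Each gene enters both changes through the same probe set. Ndufb10, Ndufa6, Ndufs1 and Ndufaf4 were high in both, and Ndufaf7, Ndufa7 and Ndufb1 low in both.

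**Figure D3:**
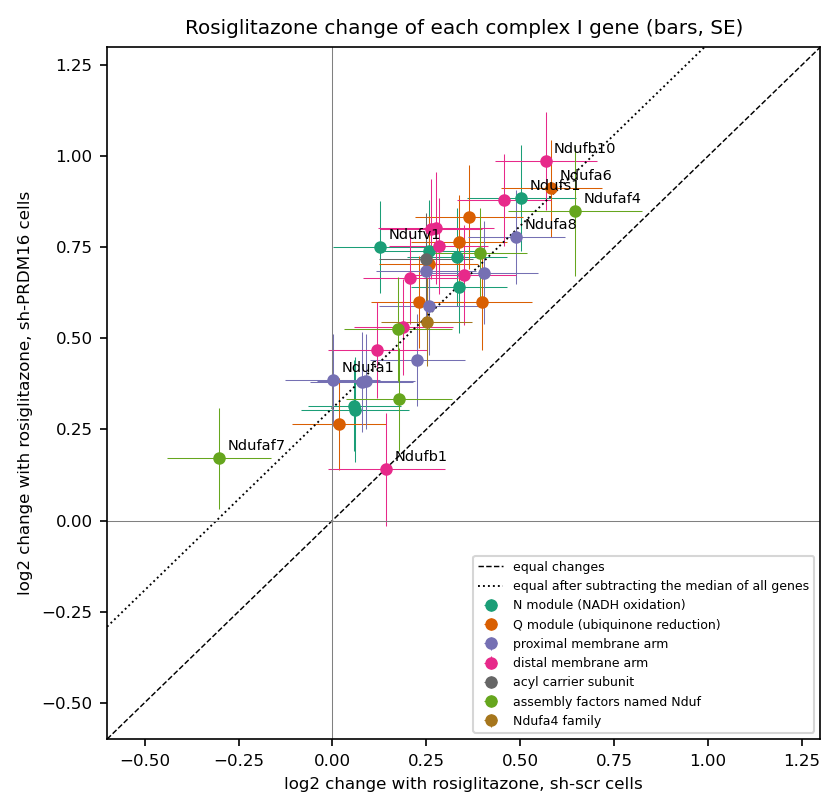
Log2 change with rosiglitazone of each complex I gene in sh-scr cells (x) and sh-PRDM16 cells (y), with bars of 1 SE and colours for the module; the dashed line is equality, and the dotted line is equality after the median change of all genes is taken off each axis. Most genes lie above the dashed line and along the dotted line, Ndufv1 lies above both, and Ndufb1 lies on the dashed line.

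The difference between the drug responses was tested directly, as the change in sh-PRDM16 cells minus that in sh-scr cells. No member passed in limma on the deposited or the median-centred scale, and 13 and 1 members had an unadjusted p under 0.05. Of all genes, 0.603% passed upwards and 0.0646% downwards on the deposited scale, and 0.0108% and 0.0430% after centring. With a trended variance prior 12 members passed on the deposited scale, and the share of all genes passing under that prior is not given here. The fitted difference was above 0 for 38 members on the deposited scale and for 25 after centring, against 8131 and 4969 of all 9294 genes. The median difference of the members was 0.35, next to 0.33 for all genes, and 0.04 after centring. Ndufv1, which binds FMN and accepts electrons from NADH, had the largest value, 0.62 (95% interval 0.22 to 1.03, limma adjusted p = 0.126), followed by Ndufb8 at 0.54 (0.10 to 0.97) and Ndufb6 at 0.53 (0.04 to 1.02). Ndufb1 was at -0.00 (-0.50 to 0.49), Ndufaf3 at 0.16 and Ndufs8 at 0.20. The intervals are wide, and a missed threshold does not show that the responses were alike.

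The fourth comparison was sh-PRDM16 against sh-scr with rosiglitazone present in both. On the deposited scale 34 of 39 members were lower by their fitted change, but only Ndufb3 and Ndufs5 fell past the threshold, where 4.62% of all genes fell and 10.6% rose. Of all 9294 genes tested, 3042 had a negative fitted change (4332 after centring). After median-centring 24 fell, Ndufb3 and Ndufs5 included, where 12.3% of all genes fell and 12.3% rose. Ndufb3 fell by 0.60 (SE 0.13, limma adjusted p = 0.0161) and Ndufs5, a proximal arm subunit facing the intermembrane space, by 0.48 (SE 0.13, limma adjusted p = 0.0357). Ndufs4, an N module subunit needed for a stable complex, was next at -0.41 and passed after centring only. The median was -0.17 against 0.15 for all genes, and -0.30 after centring. Arrays did not overlap for 30 members that were lower and 2 that were higher in sh-PRDM16 cells, where 18.2% and 46.5% of all genes were.

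Fitted changes above 0 were seen on the deposited scale for Ndufaf4 (0.18), Ndufv2 (0.10), Ndufb6 (0.07), Ndufv1 (0.04) and Ndufaf5 (0.00). Of these only Ndufaf4, at 0.05, stayed above 0 after centring, and none passed. The modules with the most centred decreases were the Q module with 6 of 7 and the distal arm with 7 of 10, against 4 of 7 in the N module, 3 of 8 in the proximal arm and 3 of 5 assembly factors. The pair of calls on the deposited scale did not hold when either treated sh-scr array or replicate 1 of treated sh-PRDM16 was left out (0 called). It shrank to 1 without either untreated sh-scr array or without replicate 2 of treated sh-PRDM16, and was 3 without either untreated sh-PRDM16 array. After centring the count was 4 and 17 without replicate 2 and 1 of treated sh-scr, 3 and 6 without replicate 1 and 2 of treated sh-PRDM16, and 14 or 15 without any other array.

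The hairpin comparisons without and with drug share no array, and across the 39 members r was 0.72 and rho 0.61, against r = 0.69 over all genes. In the treated cells, too, 7 of 8 macrophage and leukocyte markers fell (median -2.04, sums 3312 to 3348 and 862 to 898), where 4.62% of all genes fell and 10.6% rose. Of the adipocyte markers 4 of 8 fell (5 after centring) and 1, Dgat2, rose, with sums of 49407 to 51744 and 44848 to 47827. Of the endothelial markers Tek fell, and of the smooth muscle markers Actg2 and Cnn1 rose and Cspg4 fell. Of the skeletal muscle markers Acta1 rose and Myh1 fell, and of the housekeeping genes Gusb rose (after centring Pgk1 fell as well). Their part in the complex I values was not tested.

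**Figure D4:**
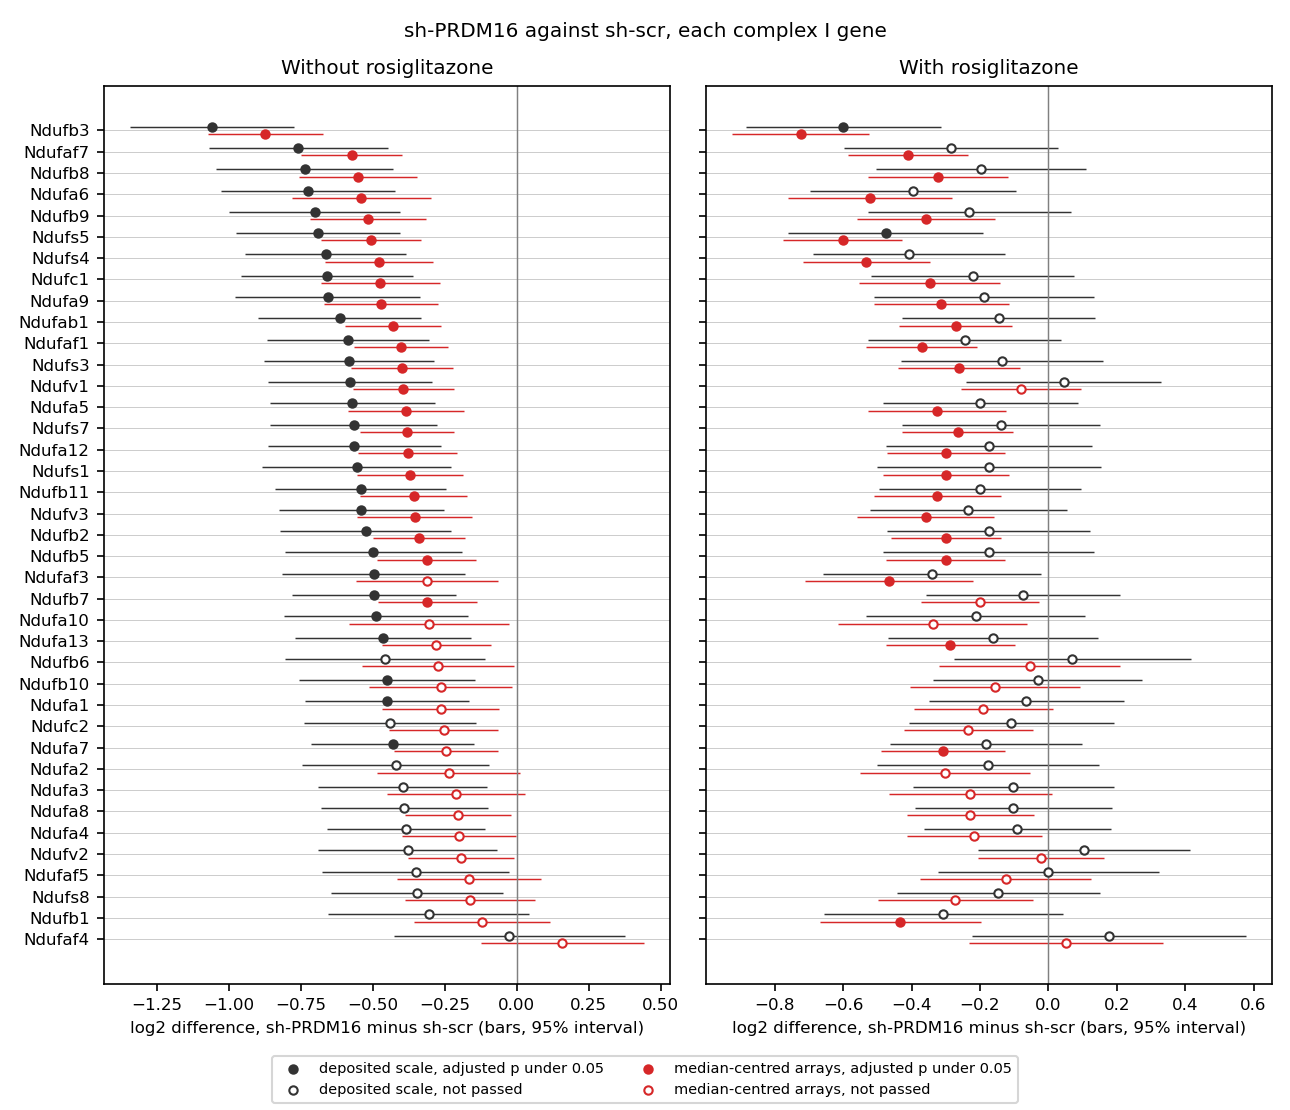
Log2 difference between sh-PRDM16 and sh-scr cells for each complex I gene without (left) and with (right) rosiglitazone, with 95% intervals, as deposited (black) and median-centred (red); filled points passed an adjusted p of 0.05. Without the drug 28 black and 22 red points are filled; with it 2 black and 24 red points are, and Ndufb3 is the lowest gene in both panels on both scales.

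The levels behind these changes are given by module, starting with the N module. Ndufv1 read 3585 and 3802 in untreated and 4017 and 4053 in treated sh-scr cells, then 2618 and 2324 in untreated and 4110 and 4215 in treated sh-PRDM16 cells. Treated knockdown cells thus lay above every sh-scr array on the deposited scale, while untreated knockdown cells lay below all of them. Ndufv2, which carries an iron-sulfur cluster next to Ndufv1, read 4727 and 4983, 5674 and 5936, 4066 and 3420, and 5923 and 6580 in the same order of groups. Its treated arrays overlapped between hairpins. Ndufs1, which holds most of the clusters of the N module, read 1648 and 1866, 2656 and 2340, 1299 and 1087, and 2158 and 2261, in the common order of groups with no overlap. Ndufs4 read 2379 and 2585, 2577 and 2589, 1628 and 1495, and 1932 and 1957: it fell with sh-PRDM16 without the drug, and its treated sh-PRDM16 arrays remained below both untreated sh-scr arrays.

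In the Q module 3 core subunits were measured, of which Ndufs3 and Ndufs7 fell without the drug and Ndufs8 did not pass. Ndufs7, which carries the last cluster before ubiquinone, read 3363 and 3541, 4351 and 4381, 2457 and 2200, and 3789 and 4146. Ndufs3 read 4098 and 4418, 4993 and 5178, 3034 and 2647, and 4489 and 4776. Ndufs8, another cluster-bearing subunit, read 4761 and 4335, 5912 and 6075, 3795 and 3356, and 5184 and 5655. On these brightest probe sets treated knockdown cells lay between untreated and treated control cells for all of them. For Ndufs8 no other probe set kept this order without overlap. On some, treated knockdown arrays lay below untreated control arrays, for example 1407 and 1392 against 1472 and 1509, and on others these groups overlapped. Ndufa6 had wider steps, at 3090 and 3072, 4352 and 4915, 1971 and 1752, and 3371 and 3659. Ndufa7, a supernumerary subunit of the same module, hardly separated the sh-scr groups, at 5569 and 5412 against 5586 and 5526, and read 4292 and 3858, and 4747 and 5044 in sh-PRDM16 cells.

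In the proximal arm Ndufs5 read 5499 and 5610, 6509 and 6488, 3668 and 3214, and 4603 and 4732. The drug raised it in sh-PRDM16 cells by 0.44 (limma adjusted p = 0.0490), yet both treated sh-PRDM16 arrays stayed under both untreated sh-scr arrays. Ndufa8 read 3884 and 4067, 5618 and 5559, 3257 and 2818, and 5224 and 5186, so that its treated groups lay far above its untreated ones with either hairpin. Ndufa1, a small subunit with a single membrane span, was flat in sh-scr cells, at 10562 and 10683 against 10308 and 10966. It read 8247 and 7330 in untreated and 9973 and 10355 in treated sh-PRDM16 cells.

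In the distal arm Ndufb3 read 5558 and 5716 in untreated and 6399 and 6627 in treated sh-scr cells, and 2753 and 2645 in untreated and 4041 and 4562 in treated sh-PRDM16 cells. It rose by 0.67 with the drug in knockdown cells and still remained below untreated control cells. On both scales Ndufs5, Ndufs4 and Ndufaf7 likewise had a positive fitted drug change in knockdown cells, with both treated arrays below both untreated control arrays. Ndufb8, often used as a marker protein of assembled complex I, read 4561 and 5119, 5593 and 6009, 3103 and 2699, and 4891 and 5219. Its treated knockdown arrays overlapped the untreated control arrays. Ndufb10 read 2956 and 2973, 4182 and 4635, 2216 and 2119, and 3963 and 4688, with treated arrays of both hairpins in the same range. Ndufb6, at 5245 and 5429, 6028 and 6935, 4330 and 3482, and 6338 and 7273, likewise had overlapping treated groups. Ndufb1 read 346 and 352, 416 and 361, 292 and 267, and 271 and 354, and passed no test on the deposited scale.

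The assembly factors differed among themselves, with changes from -0.30 to 0.65 with drug in sh-scr cells. Ndufaf4 read 1209 and 1513 in untreated sh-scr, 2197 and 2055 in treated sh-scr, 1557 and 1132 in untreated sh-PRDM16 and 2306 and 2508 in treated sh-PRDM16 cells. It was the member in which the untreated hairpin groups overlapped, and it rose with the drug in both kinds of cells. Ndufaf7 read 351 and 363, 286 and 287, 221 and 189, and 213 and 253: highest in untreated sh-scr cells, lower in both knockdown groups. Ndufaf1, a factor of the membrane arm, read 1015 and 1032, 1387 and 1312, 703 and 652, and 1088 and 1185, in the common order. Ndufaf3, which works with Ndufaf4, read 497 and 488, 550 and 569, 352 and 338, and 390 and 492, and fell with sh-PRDM16 without the drug only (-0.50; after centring -0.31 and not passed).

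**Figure D5:**
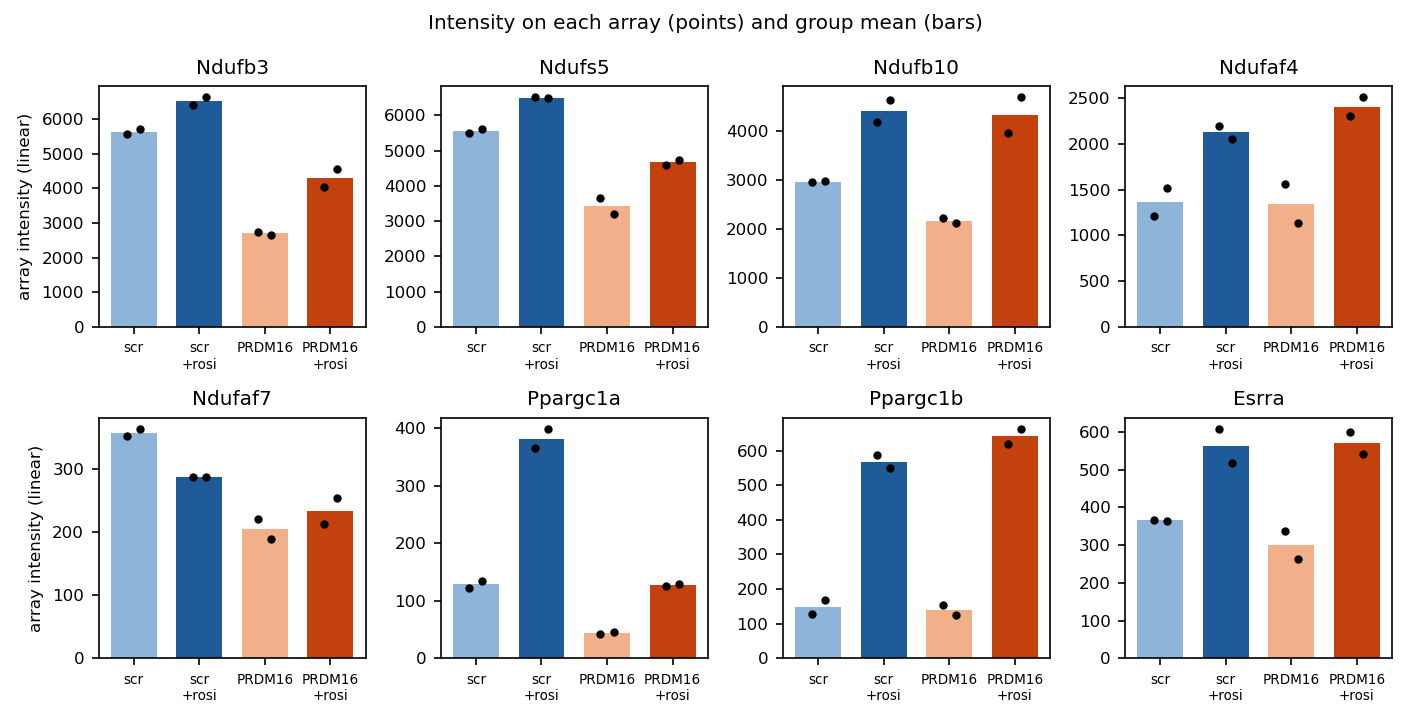
Array intensity (linear) of 5 complex I genes and 3 regulators, with each array as a point and the mean of each group as a bar from 0. Ndufb3 and Ndufs5 are lower in treated sh-PRDM16 than in untreated sh-scr cells, Ndufaf4 follows the drug, and Ndufaf7 did not rise past the threshold with it. Ppargc1a is lower in sh-PRDM16 cells, while Ppargc1b did not pass between hairpins.

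Outside the modules, Ndufab1 read 6026 and 6398, 7386 and 7383, 4262 and 3848, and 6509 and 6841. Ndufa4 read 6743 and 6726, 7906 and 8136, 5325 and 4988, and 7358 and 7704, and rose with the drug in sh-PRDM16 cells by 0.55 (limma adjusted p = 0.0175), so the complex IV subunit followed the order of the complex I genes.

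Genes with several probe sets gave a check on these readings, with every probe set tested on its own. Of the 74, 72 passed the filter, among 15285 probe sets tested. Of the 72, 14 were higher with drug in sh-scr cells and 49 higher with drug in sh-PRDM16 cells. With sh-PRDM16, 41 were lower without drug and 1 lower with it, and none passed in the opposite direction. The share of all 15285 probe sets that passed is not given here, so these counts have no background of their own. Of the 20 genes with several probe sets, none differed in sign in the untreated hairpin comparison, though calls differed between probe sets for 11. With drug in sh-scr cells the sign differed for Ndufab1, Ndufs4 and Ndufs8, and calls for 7 genes, Ndufa10, Ndufb7 and Ndufs8 among them. In this fit the brightest probe sets of Ndufa10 and Ndufs8 did not pass there (limma adjusted p = 0.0642 and 0.0549). With drug in sh-PRDM16 cells the sign differed for Ndufs8 and calls for 5 genes. In the treated hairpin comparison the sign differed for Ndufa12, Ndufab1, Ndufb6, Ndufv1 and Ndufv2, none of them called. Ndufv1, whose brightest probe set gave 0.04 there, was at -0.03 and -0.22 on its other probe sets. With drug in sh-scr cells those probe sets of Ndufv1 gave 0.26 and 0.47 beside 0.13. For Ndufs8 the brightest probe set was at -0.35 without drug and did not pass, while 4 others, at -0.83, -0.76, -0.63 and -0.70, did. The remaining one read 77 to 210 on all arrays, the dimmest of the gene, and was the only one to be negative with the drug. For Ndufs4 a probe set under 71 on every array and another gave -0.25 and -0.84 without drug beside -0.66.

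The 8 probe sets annotated to several genes cannot be tied to 1 of them, and were not tested. Those for Ndufb4 and its copies (2 probe sets), Ndufs6 and Ndufs6b, Ndufa11 and Ndufa11b, Ndufab1 and its pseudogene, and Ndufs5 and its pseudogene all had positive differences with drug in both kinds of cells (0.07 to 0.33 in sh-scr, 0.47 to 0.77 in sh-PRDM16) and negative hairpin differences without (-0.73 to -0.31) and with drug (-0.37 to -0.11). The probe set shared by Yjefn3 and Ndufa13 had the same signs. The one shared by Ndufb2 and Adck2 did not: it was at -0.44 with drug in sh-scr cells and 0.12 for the hairpins with drug.

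Other genes known for complex I assembly moved in the same directions where they passed. Of 19 listed, 9 were tested. Ecsit, a partner of Ndufaf1, rose with drug in sh-scr cells by 0.48 and in sh-PRDM16 cells by 0.75. Acad9, of the same assembly complex, rose by 0.74, Dmac2, named for the distal membrane arm, by 0.71 and Tmem186 by 0.45 in sh-PRDM16 cells. In sh-scr cells these 3 were at -0.04, 0.14 and 0.26 and did not pass on the deposited scale, nor did the difference between the 2 kinds of cells. With sh-PRDM16 and no drug, Foxred1 fell by 0.80, Dmac1 by 0.66 and Dmac2 by 0.63 (Dmac2 not after centring). Foxred1, an assembly factor related to oxidoreductases, fell by 0.59 with drug too, from 389 and 396 to 229 and 283. Aifm1, Timmdc1 and Tmem70 passed in no comparison on the deposited scale.

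Complexes II to V, 37 genes tested, gave counts beside those of complex I. With drug 10 rose in sh-scr (33 after centring) and 23 in sh-PRDM16 cells (31), 20 fell with sh-PRDM16 without drug (17) and 2, Sdha and Uqcr10, with it (11), and none passed in the difference of responses. Medians were 0.18, 0.51, -0.45 and -0.11, against 0.26, 0.67, -0.52 and -0.17 for complex I. The largest drug change was that of Uqcrfs1, the Rieske iron-sulfur protein of complex III, at 1.22 in sh-PRDM16 cells and 0.61 in sh-scr cells. Sdha, the flavoprotein of complex II, had the largest hairpin decreases, 0.91 without and 0.82 with drug. The median of the complex I genes minus that of complexes II to V was -0.61 to -0.38 over the 8 arrays, a comparison between probe sets that carries no level of its own; whether the 2 sets differ in their changes was not tested.

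Of the known regulators of respiratory chain genes, Ppargc1a and Ppara passed with both the drug and the hairpin, and Ppargc1b and Esrra with the drug. Ppargc1a, encoding PGC-1α, read 123 and 135 in untreated and 365 and 399 in treated sh-scr cells, and 42.5 and 45.8 in untreated and 126 and 129 in treated sh-PRDM16 cells. It rose with drug by 1.46 and 1.25 and fell with sh-PRDM16 by 1.27 without drug and fell by 1.47 with it (limma adjusted p = 0.000185), so treated knockdown cells read as untreated control cells did. Ppargc1b, encoding PGC-1β, read 129 and 168, 587 and 548, 154 and 126, and 619 and 663: it rose with drug by 1.84 and 2.08, and its hairpin differences of -0.07 and 0.17 did not pass. Esrra, encoding ERRα, rose with drug by 0.59 and 0.90, to between 518 and 608 in treated cells of either hairpin from between 263 and 367 in untreated ones, and did not pass between hairpins.

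Ppara, the fatty-acid-sensing nuclear receptor, rose with drug by 2.05 and 1.75 and fell with sh-PRDM16 by 1.04 and 1.34, at intensities of 6.8 to 234 that make its changes understated. Pparg, the receptor of the drug, fell with sh-PRDM16 without drug by 0.99, from 3116 and 3234 to 1742 and 1461. Nrip1, a co-repressor of oxidative genes, fell with the hairpin without drug by 0.55 and rose with drug in sh-PRDM16 cells by 0.61. Pprc1, a PGC-1-related co-activator, rose with the hairpin in treated cells by 0.50. Gabpb1 and Yy1 fell with drug in sh-scr cells by 0.66 and 0.46 on the deposited scale but not after centring. Gabpa, Nrf1, Sp1 and Tfam passed in no comparison on the deposited scale, Ppard was too dim to be tested, and none of the 13 regulators tested passed in the difference of responses.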

How the data were processed

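RNA of 8 cultures (4 groups of 2) was measured on Affymetrix mouse 430A_2 arrays. The authors deposited 1 table of linear intensities from 0.1 to 22736.2, per the file header and values; for summarization and scaling, the method is not given in the sources used here. Every column was matched to its sample through the labels, and columns of other samples numbered 0. Probe sets were named from the platform annotation: 20380 had 1 gene, 691 several and 1555 were not in it. Each gene was read from its brightest probe set, 16 was added before log2, and the lowest 25% of 12393 genes by mean were left out. Changes were fitted with limma 3.58.1 (R 4.3.3) over all 8 arrays with 1 mean per group (4 residual and 5.31 prior degrees of freedom, two-sided, Benjamini-Hochberg adjustment over 9294 genes). The code was tested on simulated data. The p-values measure only the spread between 2 arrays a group. Members and lists were chosen with earlier results of these data known. Array values are given for core subunits, for the 3 largest changes each way in each comparison, for Ndufa4 and for members whose probe sets disagree. From other lists, the 4 largest called changes and every regulator could be named. Alternatives covered scaling, filter, pseudocount, probe sets, variance prior, a replicate block, the arrays fitted and leaving out each array.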

Additional observations from a re-analysis of the deposited data

Results flagged for a closer look

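Ndufv1, the FMN-binding subunit of the N module, stood out because both untreated sh-PRDM16 arrays (2618 and 2324) lay below both untreated sh-scr arrays (3585 and 3802), whereas both treated sh-PRDM16 arrays (4110 and 4215) lay above both treated sh-scr arrays (4017 and 4053). The difference between the hairpin effects, which equals that between the drug responses, was 0.62 on the log2 scale (limma adjusted p = 0.126), so it did not pass. With the drug the hairpin difference was 0.04 as deposited and -0.08 after median-centring, and its other probe sets gave -0.03 and -0.22.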

How the results depend on the processing

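Of 3666 gene results under the alternatives, 3198 stayed on their side of the threshold, 200 newly passed and 268 no longer did. The sign differed in 57, of which 18 came with median-centring and 13 with quantile normalization; none of the 57 passed on either side, and their changes were at most 0.31 in size. Counts of members past 0.05 moved more, and the cause was not tested. As background, 1216 of all 9294 genes rose and 1383 fell with drug in sh-scr cells when quantile-normalized. In the treated hairpin comparison 1163 rose and 1164 fell on that scale. Under the filter, prior, pseudocount, probe set, block and left-out-array alternatives the share of all genes is not given here. The counts of members that follow have no background of their own there. With drug in sh-scr cells 9 became 37 median-centred, 33 quantile-normalized, 14 with the 50% filter, 23 with a trended prior and 14 with a pseudocount of 64; leaving out 1 array gave 0 to 14, and 28 to 36 median-centred. In sh-PRDM16 cells 30 became 11 to 30 and 27 to 34 without 1 array. With sh-PRDM16 and no drug 28 became 16 where every probe set of a gene, each tested on its own, had to pass (21 by the brightest alone), and 3 to 32 or, centred, 6 to 23 without 1 array. With drug 2 became 24 median-centred, 20 quantile-normalized, 1 without a filter, 4 with the 50% filter, 1 where every probe set had to pass, 4 with a trended prior, 4 with a pseudocount of 64, and 0 to 3 or, centred, 3 to 17 without 1 array. In the difference between responses 0 became 1 with the 50% filter, 12 with a trended prior, 1 with a pseudocount of 64, and stayed 0 without any 1 array. The members' median minus that of all genes became 0.47 and 0.59 with drug in sh-scr and sh-PRDM16 cells when quantile-normalized (0.56 and 0.67 as deposited). Without 1 array these ran from 0.48 to 0.65 and 0.65 to 0.68, the hairpin medians from -0.37 to -0.35 without and -0.36 to -0.26 with drug, and that of the difference from -0.03 to 0.09. With the replicate number as a block the 5 counts were 6, 27, 21, 1 and 0, in the order above. Same-numbered arrays correlated at -0.02 to 0.05 in their deviations from group means. Such values cannot show whether same-numbered arrays shared an animal or a culture, which the labels do not give. Leaving out arrays on the centred scale was chosen after seeing the data. Precision is limited by the small number of arrays, 2 a group.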
